A study of Mus musculus with 42 samples.

Results

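LADs (lamina-associated domains) of livers taken at circadian time CT0 were compared with those of non-synchronized (NS) livers. Each of the 24620 full 100-kb bins of the 19 autosomes was counted as in a LAD when 50 kb or more of it was covered by LADs. A total of 166 bins (16.6 Mb) were in LADs in both CT0 libraries and in neither NS library and are called gained. A further 69 bins (6.9 Mb) were in LADs in both NS libraries and in neither CT0 library and are called lost. LADs had been mapped by ChIP-seq of lamin B1 (LMNB1) in liver of wild-type C57Bl/6 mice kept under 12 h of light and 12 h of dark, with 1 library per mouse and 2 mice per group. Livers of the NS group were taken at midday, before any fasting began. CT0 mice had been kept off chow for 24 h, and CT0 was 6 am, when lights came on and food was returned without limit. The clock time and the feeding state thus differed together between NS and CT0 and cannot be told apart. The labels name the mice female in one field and male in another. Whole pieces of frozen liver were used, so a LAD is an average over liver cells, and contact with the lamina in fewer cells cannot be told apart from weaker contact in each.

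The nuclear lamina is a meshwork of A- and B-type lamins that lines the inner nuclear membrane and anchors chromatin at the nuclear periphery. LADs are long stretches of mostly silent, AT-rich and gene-poor chromatin that touch this meshwork, and many of them are shared between cell types. In the liver, most genes used by hepatocytes lie outside LADs, whereas gene families used by other tissues, such as olfactory and vomeronasal receptors, often lie inside.

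As examples of the sequence in gained and lost bins, 4 promoters are shown. For each of the 5 longest gained and the 5 longest lost blocks, the first gene with a name other than a model number and with an entry in the RefSeq promoter table (GRCm38.p6) was taken, which gave 2 gained and 2 lost genes. The RefSeq start can differ from that of the GENCODE annotation, by which genes were placed in bins. For Olfr992 (85409469) and Mmrn1 (60924976) the GENCODE start lay outside the stretch shown. The GENCODE start of Olfr992 and the stretch shown for it were both outside LADs in CT0 replicate 1. Each sequence spans 250 bases before to 50 bases after the RefSeq start. All run 5′ to 3′ on the strand of the gene, with every CG in capitals. They are Olfr992, an olfactory receptor gene (gained, chr2:85400482-85400781, minus strand), Mmrn1, which encodes multimerin 1 of platelets and endothelium (gained, chr6:60944067-60944366, plus strand), the gene model 4930555G01Rik (lost, chr14:5050379-5050678, plus strand) and Scgb2b7, a secretoglobin gene (lost, chr7:31705705-31706004, minus strand).
Olfr992: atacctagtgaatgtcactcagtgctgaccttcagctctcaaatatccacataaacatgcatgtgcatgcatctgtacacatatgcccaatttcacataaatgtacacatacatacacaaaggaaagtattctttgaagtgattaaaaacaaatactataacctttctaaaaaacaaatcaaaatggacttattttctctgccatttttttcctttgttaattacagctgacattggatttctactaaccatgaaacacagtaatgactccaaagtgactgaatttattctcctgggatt
Mmrn1: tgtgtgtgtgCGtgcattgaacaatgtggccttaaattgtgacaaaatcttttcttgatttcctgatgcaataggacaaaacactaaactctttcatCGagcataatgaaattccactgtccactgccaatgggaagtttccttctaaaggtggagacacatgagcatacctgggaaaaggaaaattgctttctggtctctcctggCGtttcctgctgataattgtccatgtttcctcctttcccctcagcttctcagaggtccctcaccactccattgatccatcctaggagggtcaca
4930555G01Rik: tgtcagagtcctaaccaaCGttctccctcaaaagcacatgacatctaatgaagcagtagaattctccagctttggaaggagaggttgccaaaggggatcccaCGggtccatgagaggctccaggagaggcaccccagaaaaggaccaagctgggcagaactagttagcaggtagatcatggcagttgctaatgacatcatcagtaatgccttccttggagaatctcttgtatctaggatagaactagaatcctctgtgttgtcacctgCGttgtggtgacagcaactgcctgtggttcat
Scgb2b7: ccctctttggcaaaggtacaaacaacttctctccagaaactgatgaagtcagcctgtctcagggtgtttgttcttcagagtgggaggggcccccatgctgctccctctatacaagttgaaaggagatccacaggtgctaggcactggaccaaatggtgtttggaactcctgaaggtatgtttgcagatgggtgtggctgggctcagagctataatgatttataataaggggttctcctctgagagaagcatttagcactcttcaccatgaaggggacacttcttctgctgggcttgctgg

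All 4 promoters were poor in CG. They held 0 CG in Olfr992 and in Scgb2b7 and 3 in Mmrn1 and in 4930555G01Rik, whereas the median was 15 over the 15687 autosomal promoters matched. Each promoter was divided into 9 adjacent words of 32 bases, which were looked up on both strands of chromosomes 1 to 19, X and Y. In Mmrn1 all 9 words, and in Olfr992 8 of 9, were found once in the genome. In 4930555G01Rik 0 of 9 words were found once, and the median word was found 49 times (3 to 75). In Scgb2b7 6 of 9 words were found more than once, with a median of 5 copies. These 4 do not stand for all blocks, since 12 of the 18 lost blocks had fewer than 50% repeated words by the measure given with the lost bins.

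Per library, LADs covered 333.0 Mb of the autosomes in NS replicate 1, 519.4 Mb in NS replicate 2, 423.8 Mb in CT0 replicate 1 and 573.7 Mb in CT0 replicate 2. The groups overlapped, and in each group replicate 2 had the larger coverage. The means were 426.2 ± 131.7 Mb for NS and 498.7 ± 106.0 Mb for CT0 (SD, n = 2 each), and the difference of 72.5 Mb was smaller than the spread between replicates (exact two-sided permutation test, p = 0.667, 1 after Benjamini-Hochberg adjustment over 4 library measures). With 2 mice against 2 the smallest p this test allows is 0.333. The number of LADs was 85 and 285 in NS and 109 and 283 in CT0, the median LAD 3.48 and 1.09 Mb in NS and 3.15 and 1.24 Mb in CT0, and the number of protein-coding genes with their start in a LAD 869 and 1723 in NS and 1152 and 1793 in CT0. These 3 measures gave exact permutation p values of 1, 1 and 0.667, each 1 after adjustment. Between same-numbered libraries, CT0 minus NS was 90.7 Mb in replicate 1 and 54.3 Mb in replicate 2. The difference of the group means was -20.6 Mb without NS replicate 1 and -2.44 Mb without CT0 replicate 2. Each of these values set 1 library against the mean of 2 libraries with unlike EDD windows, which are described next. On chromosome X, coverage was 2.26 and 7.17 Mb in NS and 0 and 1.30 Mb in CT0, and on chromosome Y it was 0 in all 4.

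LADs were called with EDD (Enriched Domain Detector), which counts reads in windows and reports domains made of whole windows. The window length, its bin size, was 61 kb in NS replicate 1, 4 kb in NS replicate 2, 47 kb in CT0 replicate 1 and 4 kb in CT0 replicate 2, as the step of the LAD starts shows. Both replicate 1 libraries thus had large windows, few LADs and long ones, and both replicate 2 libraries had small windows and many LADs. Of the 24620 bins, 17461 (70.9%) were in LADs in none of the 4 libraries and 2127 in all 4. The third largest class, 1404 bins, was in LADs in both replicate 2 libraries and in neither replicate 1 library, and 276 bins showed the reverse. Bins that followed the replicate number, and with it the window length, were therefore more numerous than bins that followed the time point.

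**Figure D1:**
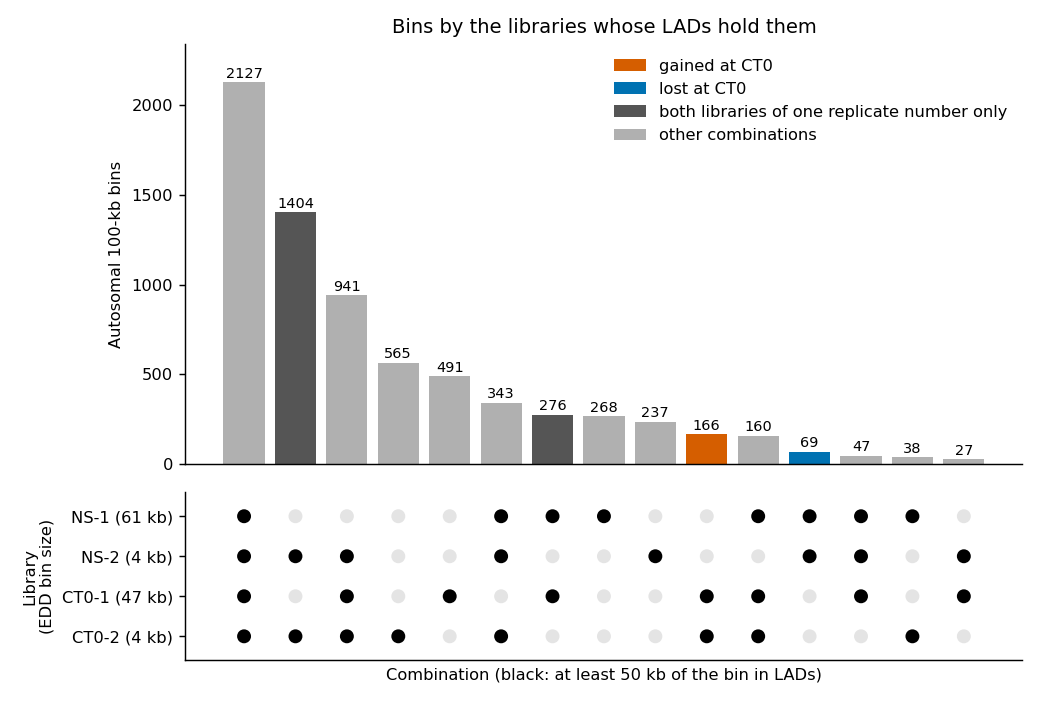
Number of autosomal 100-kb bins (upper axis, linear) for each combination of the 4 libraries whose LADs hold them, with the combination and the EDD bin size of each library in the dot grid. Bins gained at CT0 (166) and lost at CT0 (69) are coloured, and both are fewer than the 1404 bins found in both replicate 2 libraries only.

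A rule that asks for both NS libraries to lack a LAD can only lower the count of gained bins. A total of 1267 bins (126.7 Mb) were in LADs in both CT0 libraries without being in LADs in both NS libraries. Of these, 941 (74.3%) were already in LADs in NS replicate 2, 160 (12.6%) in NS replicate 1, and 166 (13.1%) in neither. Likewise 459 bins were in LADs in both NS and not in both CT0 libraries, of which 343 (74.7%) were still in LADs in CT0 replicate 2, 47 in CT0 replicate 1 and 69 in neither. When same-numbered libraries were compared, replicate 1 gave 1625 gained and 718 lost bins, and replicate 2, with windows of 4 kb in both libraries, gave 929 and 380. The 166 gained bins were 10.2% and 17.9% of these gains, and the 69 lost bins 9.61% and 18.2% of these losses. In all, 300 bins changed in both same-numbered comparisons, 235 (78.3%) in the same direction and 65 in opposite directions.

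The gained bins were 0.674% and the lost bins 0.280% of all autosomal bins, which are the counts the rule itself fixes and which were not tested. They were 4.89% of the bins in both CT0 libraries and 2.67% of the bins in both NS libraries. Few members were marginal to the 50-kb limit, with 19 gained and 6 lost bins within 10 kb of it in at least 1 of the 4 libraries. Of the gained bins, 157 were covered over their full length in CT0 replicate 1 and 141 in CT0 replicate 2, while 161 had no LAD at all in NS replicate 1 and 143 none in NS replicate 2. Of the lost bins, 63 and 52 were fully covered in NS replicates 1 and 2, and 67 and 61 had no LAD in CT0 replicates 1 and 2. The least covered gained bin had 51 kb in a CT0 library, and the nearest bins outside had 48 kb in a CT0 library or 52 kb in an NS library. For lost bins the values were 52 kb inside, and 34 kb in an NS library or 52 kb in a CT0 library outside. Both counts depended on every library. Gained bins rose to 326 without NS replicate 1, to 1107 without NS replicate 2, to 731 without CT0 replicate 1 and to 657 without CT0 replicate 2, as fewer libraries had to agree. Lost bins rose to 306, 337, 116 and 412 in the same order. Whether window length had a part in which bins were gained or lost was not tested.

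Gained bins were spread over 18 of the 19 autosomes in 52 blocks of adjacent bins, of which 18 were single bins. They were most numerous on chromosome 8 (32 bins, 2.47% of its bins), chromosome 15 (18 bins), chromosome 9 (14 bins) and chromosome 2 (13 bins), and chromosome 17 had 0 although 176 of its bins were in LADs in all 4 libraries. Gained blocks lay beside LADs already seen in NS. Of the 52, 46 touched on one side a bin in a LAD in at least 1 NS library and 1 touched such bins on both sides. The remaining 5 blocks (25 bins) stood apart, none by more than 0.8 Mb. Only 10 blocks touched a bin in LADs in both NS libraries, and the median distance to the nearest such bin was 4.0 Mb.

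The longest gained block, 2.2 Mb on chromosome 8 (chr8:28000001-30200000), held the start of 1 gene, Unc5d, a netrin receptor of axon guidance (chr8:28646717-29219636, minus strand). LADs covered 0% of it in NS replicate 1, 0.909% in NS replicate 2 and 100% in both CT0 libraries. It was the 1 gained block with a bin in a LAD of an NS library on both sides. It was covered by 74.8 to 100% in all libraries of CT6, CT12 and CT18 and in CT24 replicate 1, and by 0% in CT24 replicate 2 and both CT30 libraries. The second block, 1.5 Mb on chromosome 15 (chr15:50000001-51500000), held the start of Trps1, a GATA-type zinc finger repressor of transcription (chr15:50654752-50890463, minus strand). It too was fully covered in both CT0 libraries, and 0% and 1.87% in NS. At CT6 it was 0% covered in both libraries, and at CT12 53% in replicate 1 and 55.3% in replicate 2. In the same order it was 100% and 31.9% covered at CT18, 100% and 9.87% at CT24, and 4.33% and 6.27% at CT30. The third block, 0.8 Mb on chromosome 2 (chr2:85400001-86200000), was 0% covered in both NS libraries and 94.2% and 100% in CT0. The fourth, 0.8 Mb on chromosome 10 (chr10:71700001-72500000), had no protein-coding gene start and was one of the 5 that stood apart from NS LADs. The fifth, 0.7 Mb on chromosome 6, held the starts of Mmrn1 and Ccser1, among others. It was 0% covered in both NS libraries, fully covered in CT0, and at 100% in 9 of the 10 later libraries, the exception being CT6 replicate 2 at 0%.

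**Figure D2:**
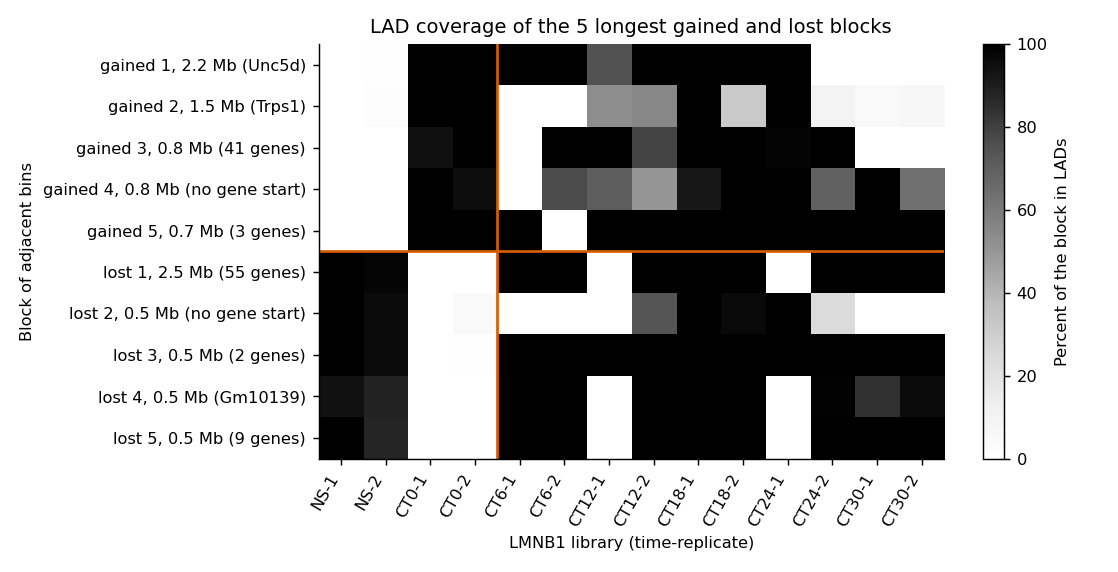
Percent of each block covered by LADs (grey scale, 0 to 100) in the 14 LMNB1 libraries (columns, time and replicate) for the 5 longest gained and the 5 longest lost blocks (rows). Columns left of the vertical line are the 4 libraries that chose the blocks. The fifth gained block was covered in 9 of the 10 later libraries, and the lost blocks 1, 4 and 5 were uncovered at CT12 replicate 1 and CT24 replicate 1 together.

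Gained bins held the starts of 75 protein-coding genes, 4.52 per Mb, against 1.22 per Mb in bins in LADs in all 4 libraries and 10.4 per Mb in bins in none. Bins in both replicate 2 libraries only held 4.31 per Mb, near the gained value. Most of the 75 gained genes were olfactory receptors, the odorant receptors of the nasal epithelium, which stand in tandem clusters. They numbered 53 of 75, in 3 clusters. Gained bins held 4.70% of the 1128 autosomal olfactory receptor genes, against 0.360% of all 20807 autosomal protein-coding genes. Clustered genes enter a bin together, and these shares were not tested. Of the 75 genes, 67 had the start itself in a LAD in both CT0 libraries. The other 8 had it in 1 CT0 library, although 50 kb or more of their bin was covered in both. They were Olfr992, Olfr993, Olfr994 and Olfr995, whose starts lay outside LADs in CT0 replicate 1, and Arsj, Grin3a, Fat3 and Olfr983, whose starts lay outside them in CT0 replicate 2. The start of 1 gene, Olfr229, was in a LAD in NS replicate 2. The block on chromosome 2 held 40 of the olfactory receptor genes, from Olfr992 to Olfr52 and including Olfr993, Olfr994, Olfr995, Olfr996, Olfr998, Olfr1000 and Olfr1002. A block of 2 bins on chromosome 9 (chr9:39900001-40100000) held 10, and 1 bin on chromosome 19 (chr19:12800001-12900000) held 3. The cluster on chromosome 2 was covered by 50% or more in 7 of the 10 later libraries, the one on chromosome 9 in 5 and the one on chromosome 19 in 3. Of the 1128 autosomal olfactory receptor genes, 53 were thus in gained bins and 0 in lost bins, 29 were in bins in LADs in all 4 libraries and 306 in none. The other 740 were in bins of the remaining combinations, among them 282 in both replicate 2 libraries only. More olfactory receptor genes thus lay in bins that followed the replicate number than in gained bins.

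Without the olfactory receptors and 2 gene models, gained bins held 20 genes. By the lists used here they included Ugt8a, the galactosyltransferase that makes galactosylceramide (1 of 66 genes of the transferase list). Grin3a, a subunit of NMDA-type glutamate receptors, was 1 of 46 neurotransmitter receptor genes. Fat3, a large cadherin, was 1 of 104 cadherins and protocadherins, and Unc5d 1 of 112 genes of synaptic and axon guidance adhesion. Of all autosomal genes 0.360% were in gained bins, so 1 gene of a list is no result about that list. Among the genes named here after their values were seen were Mmp13, Mmp12 and Mmp1b, matrix metalloproteinases in 1 cluster on chromosome 9. Pgr, the progesterone receptor, and Fshb, the beta subunit of follicle stimulating hormone, were also among them. The bins of the 3 metalloproteinase genes were in LADs in 2 of the 10 later libraries, that of Pgr in 5, that of Fshb in 4, and those of Mmrn1 and Ccser1 in 9. No protein-coding gene started in 137 of the 166 gained bins (82.5%), as in 91.2% of the bins in LADs in all 4 libraries and 49.8% of those in none.

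In base content the gained bins lay between bins in LADs in all 4 libraries and bins in none. Their GC content was 38.6%, against 37.2% and 43.4%, and they had 5.69 CG per kb, against 4.99 and 9.74. The 1404 bins in both replicate 2 libraries only, which follow window length, stood at 37.7% GC. Of 75 gained genes, 52 had a promoter in the RefSeq table, with a median of 1 CG, and 8 (15.4%) had 10 or more CG, against 36 (18.7%) of 193 for genes in all 4 libraries and 9031 (65.7%) of 13738 for genes in none. The E-box CACGTG, a palindrome and the letters bound by CLOCK and BMAL1, was found in 1 of the 52 (Olfr1026) and in 1 of 41 lost promoters (Gm3411). It was in 13 (6.74%) of the 193 promoters of genes in all 4 libraries and in 8.10% of all 15687 promoters of that length. These shares were not tested.

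The 69 lost bins formed 18 blocks on 11 autosomes and were concentrated on chromosome 14, which held 30 of them, followed by chromosome 7 with 13. The longest block was 2.5 Mb at the start of chromosome 14 (chr14:4400001-6900000) and held 25 bins, 36.2% of all lost bins. LADs covered 100% of it in NS replicate 1, 97.9% in NS replicate 2 and 0% in both CT0 libraries. A second block lay close by (chr14:3500001-4000000), at 100% and 87.2% in NS and 0% in CT0. The nearest bin in a CT0 LAD was 31.8 and 34.7 Mb away, so these were domains absent from the CT0 calls and not shortened ones. Of the other 16 blocks, 1 more stood apart, and 15 touched a bin in a LAD in at least 1 CT0 library. Because of chromosome 14, 35 of the 69 lost bins (50.7%) lay within 10 Mb of the centromeric end, against 10 of the 166 gained bins (6.02%) and 7.72% of all bins. On the other chromosomes it was 5 of 39 (12.8%).

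Lost bins were rich in sequence that occurs more than once in the genome. For this, 32-base words taken every 500 bases were looked up in the whole genome. Of the words in lost bins 70.0% were found more than once, against 15.5% in gained bins, 19.8% in bins in LADs in all 4 libraries and 12.6% in bins in none. The median bin had 91.5% repeated words among lost bins (8.5 to 100%) and 15% among gained bins (1 to 33.5%). In the chromosome 14 bins the share was 95.6%, and without them it was 50.1%, with a median bin of 36%. At least 50% of the words were repeated in 829 autosomal bins (3.37%). These held 46 of the 69 lost bins (66.7%) and 0 of the 166 gained bins. Of the 183 repeated bins that were in LADs in both NS libraries 25.1% were lost, and of the 2403 other bins in both NS libraries 0.957% were. Without repeated bins, 23 lost bins stood against 166 gained, and without chromosome 14, 39 against 160.

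**Figure D3:**
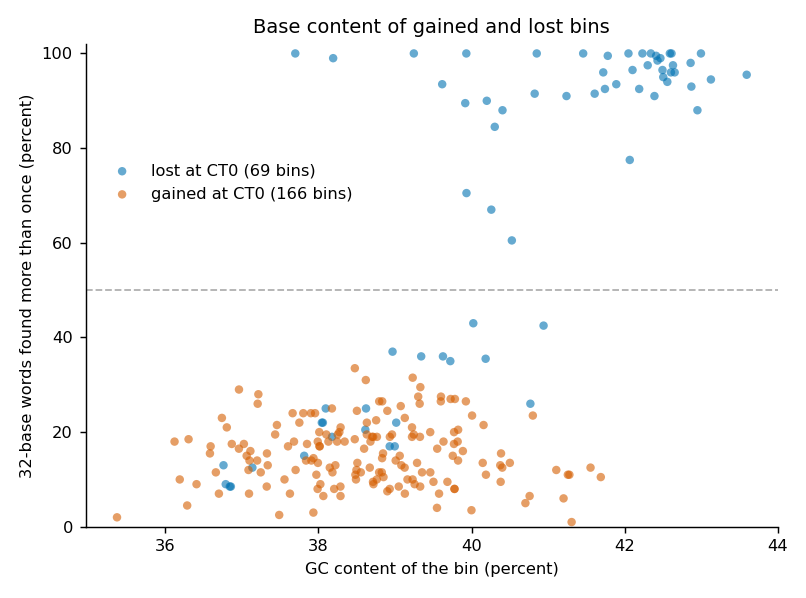
GC content (horizontal, percent) and share of 32-base words found more than once in the genome (vertical, percent) of each of the 166 gained and 69 lost bins, 1 point a bin. The dashed line marks 50%, above which lie 46 lost bins and 0 gained bins.

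Of the 829 repeated bins, 33.5% and 38.8% were in LADs in NS replicates 1 and 2, and 15.3% and 23.8% in CT0 replicates 1 and 2, but these bins include the 46 lost and 0 gained bins that the rule took from the same libraries. In the 783 repeated bins that were neither gained nor lost the shares were 29.6% and 35.2% in NS and 16.2% and 25.2% in CT0. This split was chosen after the values of the lost bins were seen, and the difference was not tested. Of the 23791 other bins, 12.8% and 20.5% were in LADs in NS and 17.3% and 23.3% in CT0. In the 10 later libraries the share of repeated bins ran from 24.5% at CT24 replicate 1 to 57.4% at CT18 replicate 2. On chromosome 14 the 108 repeated bins were in LADs at 43.5% and 41.7% in NS and at 0% in both CT0 libraries, in CT12 replicate 1 and in CT24 replicate 1, while the other 8 later libraries had 41.7 to 80.6%. At CT12 and CT24 the 2 mice of the time point thus stood apart, at 0% and 62.0% and at 0% and 41.7%. The paper states that Bowtie was run with default parameters. It says nothing further on how reads that match several places were handled. The part of repeated sequence in the loss was not tested.

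**Figure D4:**
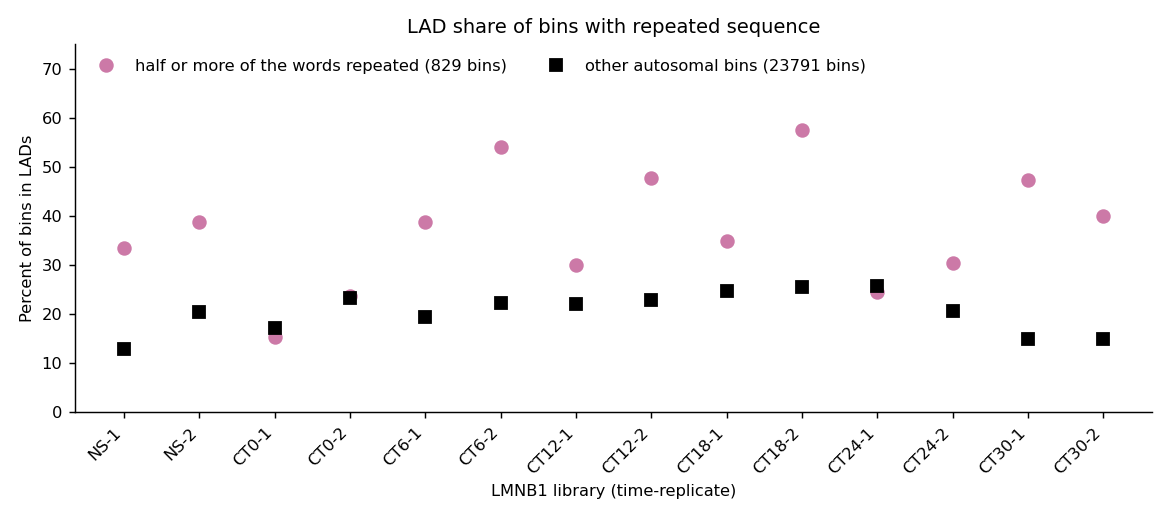
Percent of bins in LADs in each of the 14 LMNB1 libraries (horizontal, time and replicate), for the 829 autosomal bins in which 50% or more of the 32-base words occur more than once and for the 23791 others. Repeated bins, which include the 46 lost and 0 gained ones, stand at 15.3% and 23.8% in CT0 and at 33.5% and 38.8% in NS.

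The lost bins held the starts of 80 protein-coding genes, 76 of them with the start in a LAD in both NS libraries and 4 (Depdc1a, Gm3099, Gm3164 and Gm3667) in 1, and of the 80, 64 were on chromosome 14 and 69 were gene models known only by number. On chromosome 14, 1 of the 64 was not of that kind, 4930555G01Rik. Among the others were 4 vomeronasal receptor genes, which encode pheromone receptors, all on chromosome 7. They were Vmn2r46, Vmn2r47, Vmn1r135 and Vmn1r137, 4 of 327 such genes (1.22%), against 0.384% of all autosomal genes in lost bins. Of the 327, 58 were in bins in LADs in all 4 libraries. The third longest lost block (chr7:31500001-32000000) held Scgb2b7 and Scgb1b7, secretoglobin genes of the family of androgen-binding proteins of saliva and tears. It was covered at 100% and 96.0% in NS, at 0% and 0.80% in CT0, and at 100% in all 10 later libraries. The second block (chr3:110300001-110800000) held no gene start and was one of the lost blocks with little repeated sequence (14.6%). It was covered by 50% or more in 4 of the 10 later libraries. The fourth (chr13:65300001-65800000) held the model Gm10139. How surely reads of multigene families that share sequence were placed cannot be seen from LAD calls and was not tested.

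No gene of the core clock, of the fasting or refeeding response or of the hepatocyte markers started in a gained or a lost bin, and of 24 gene lists examined 18 had no gene in either. Of 20 core clock genes, 19 had their start in bins in LADs in none of the 4 libraries and 1, Rorb, in a bin in LADs in all 4. Of all autosomal genes 87.6% were in none of the 4, so such shares are no result about a list. The one nearest to a member bin, Hlf, was 0.409 Mb away. All 20 genes of the fasting response, 16 of the refeeding response, 16 of the nuclear lamina and envelope and 7 hepatocyte genes (Alb, Apoa1, Ttr, Serpina1a, Cyp2e1, Hnf4a and Tat) were in bins in LADs in none of the 4. The files hold no expression, so the labelled tissue was described only by the place of these genes. Outside LADs in all 4 libraries were also 87 of 94 cytochrome P450 genes (92.6%, near the 87.6% of all genes), which oxidize drugs and steroids, and the other 7, among them 6 of the Cyp2c cluster, were in LADs in 1 to 3 of the 4 libraries and in neither gained nor lost bins. The lists without a member gene also took in 372 solute carriers, 415 zinc finger proteins, 144 cytokine, chemokine and related immune genes and 76 ribosomal protein genes. The zinc finger list did not include Trps1, which started in a gained bin. Over all 20807 autosomal genes, 0.360% were in gained and 0.384% in lost bins.

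The 10 libraries of CT6 to CT30, which had no part in choosing the bins, show how far the difference held. A gained bin was in a LAD in a median of 6 of these libraries and a lost bin in 8. In all 10 libraries both the gained and the lost share were above that of all autosomal bins, which was 15.8 to 26.5%. For gained bins the shares were 57.8% and 60.8% at CT6, 56.0% and 67.5% at CT12, 81.3% and 74.7% at CT18, 92.2% and 46.4% at CT24, and 31.3% and 23.5% at CT30. They were highest at CT18 (78.01 ± 4.69%) and lowest at CT30 (27.4 ± 5.54%; SD, n = 2), where 107 of the 166 bins were in LADs in neither mouse. The spread within a time point, pooled over the 5 time points, was 15.3 percentage points. The CT30 libraries had EDD windows of 31 and 46 kb and the lowest coverage of all bins, so time and window length moved together there.

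For lost bins the shares were 87.0% and 85.5% at CT6, 29.0% and 95.7% at CT12, 95.7% and 97.1% at CT18, 39.1% and 76.8% at CT24, and 81.2% and 72.5% at CT30. Most lost bins were thus in LADs again 6 h after CT0, with 57 of 69 in LADs in both CT6 mice. The exceptions were CT12 replicate 1 and CT24 replicate 1, the libraries without LADs on the repeated start of chromosome 14, and they were the only ones of the 10 in which the lost share lay below the gained share. Without chromosome 14 the lost share ran from 51.3 to 94.9% over the 10 libraries. Averaged over them, gained bins stood at 59.2% and lost bins at 75.9%, against 95.3% for bins in LADs in all 4 libraries and 2.14% for bins in none. Bins in LADs in both replicate 2 libraries only stood at 69.2%. Bins in LADs in 1 CT0 library alone had 19.4% (replicate 1) and 36.3% (replicate 2), and those in 1 NS library alone 33.8% and 40.7%. Bins shared by 1 NS and 1 CT0 library only stood at 53.9% (NS replicate 1 and CT0 replicate 2), 60.7% (NS replicate 2 and CT0 replicate 1) and 33.9% (both replicate 1), so bins shared across the groups overlapped with the gained bins in this share.

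**Figure D5:**
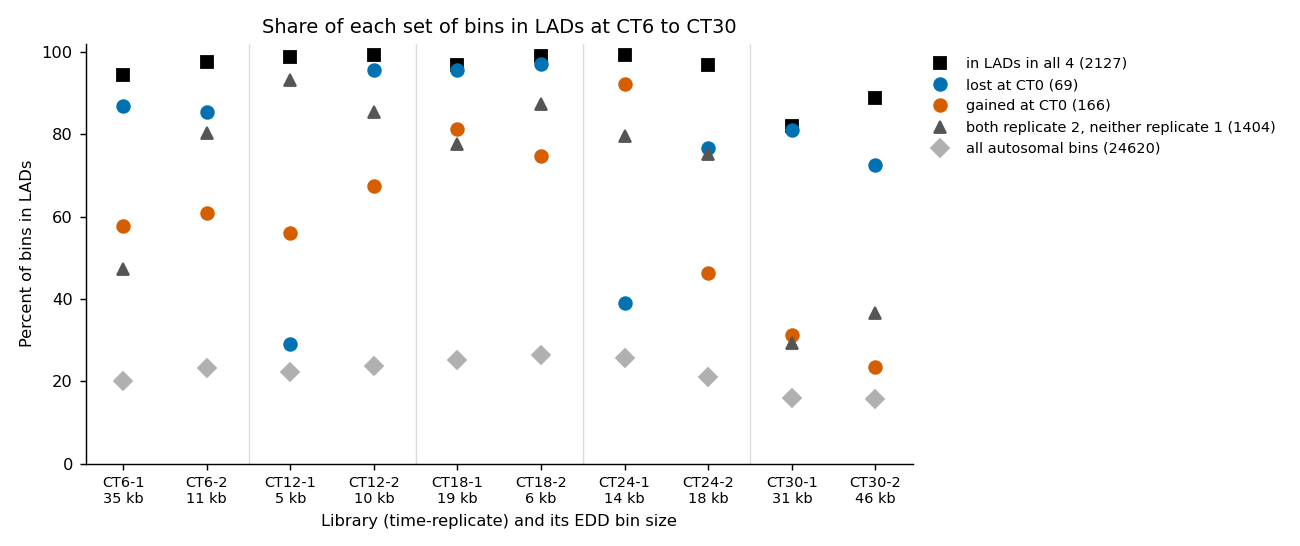
Percent of bins in LADs (vertical) in each of the 10 libraries of CT6 to CT30 (horizontal, with the EDD bin size in kb), for gained and lost bins, bins in LADs in all 4 NS and CT0 libraries, bins in both replicate 2 libraries only, and all autosomal bins. Gained bins fall to 31.3% and 23.5% at CT30, and lost bins drop to 29.0% and 39.1% in CT12 replicate 1 and CT24 replicate 1.

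By the same rule, and against the same 2 NS libraries, CT6 had 292 gained (1.19% of bins) and 71 lost bins (0.288%), CT12 318 (1.29%) and 26 (0.106%), CT18 521 (2.12%) and 9 (0.0366%), CT24 401 (1.63%) and 29 (0.118%), and CT30 148 (0.601%) and 218 (0.885%). These comparisons share their controls and are not independent. Their EDD windows also differed, at 47 and 4 kb for CT0, 35 and 11 kb for CT6 and 5 and 10 kb for CT12. For CT18 they were 19 and 6 kb, for CT24 14 and 18 kb, and for CT30 31 and 46 kb. The part of window length in these counts was not tested. CT0 lay near the lower end for gain, above CT30 alone, and its loss was close to that of CT6. Lost bins in repeated sequence numbered 46 of 69 at CT0, 4 of 71 at CT6, 1 of 26 at CT12, 0 of 9 at CT18, 10 of 29 at CT24 and 6 of 218 at CT30, and the difference between time points was not tested.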

How the data were processed

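LMNB1 ChIP-seq of liver from 2 NS and 2 CT0 mice was compared, with 10 libraries of CT6 to CT30 as further data, each library being 1 mouse. The authors had removed duplicates with Picard and mapped reads to mm10 with Bowtie at default parameters (version 2.25.0 in the submitters' processing notes). They had down-sampled ChIP and input to equal depth per chromosome, and called LADs in each library with EDD. The series lists 1 input sample per time point, so the libraries of a group may share their control. In that case their LADs are not independent, and input and group cannot be told apart. Any part of the input in the gained and lost bins was not tested. Gap penalty and bin size were averaged over repeated runs. The EDD version is not given in the sources used here. The deposited files hold LAD starts and ends without score, signal or count, which leaves the depth behind a LAD unknown and its counting error out of reach. All ends that lay off a whole kb (64 in the 4 libraries) were at gaps of the assembly, where LADs are cut. Inputs and RNA-seq were not used here.

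The EDD bin size was read from the LAD starts as their common step in kb. Overlapping LADs were merged and covered bases counted in 100-kb bins from the first base of each autosome. The members, gene lists and comparisons were chosen with earlier results of these data known. Genes were the 20807 autosomal protein-coding genes of GENCODE vM21, assigned by transcription start. Promoters and sequence came from RefSeq (GRCm38.p6, the assembly of mm10). Promoters were matched by symbol (15687 of 20807), and their RefSeq start can differ from the GENCODE start. Repeated words are those of 32 bases found more than once on chromosomes 1 to 19, X and Y. Named genes are those with a start in the 5 longest gained and lost blocks (up to 10 a block, without numbered models), and those of the lists in member bins (up to 8 a list), 1 of which is not reported here. Library measures were compared by an exact two-sided permutation test, and bin counts were not tested. The code was tested on simulated LADs with known gained and lost runs. Python 3.11.15, NumPy 2.4.6 and pandas 2.3.3 were used. Alternatives were the share of a bin covered, the bin width and position, a minimum LAD size, closed gaps, chromosome X, single replicates and each library left out, and, chosen after the data were seen, bins of repeated sequence and chromosome 14 left out and LADs joined at assembly gaps.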

Additional observations from a re-analysis of the deposited data

How the results depend on the processing

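With 25 or 75 kb of a bin covered, with bins of 50 or 200 kb or shifted by 50 kb, with LADs of at least 1 Mb only, with gaps under 500 kb closed and with chromosome X added, gained bins numbered 160 to 180 and lost bins 62 to 75, and the share of gained bins in LADs in the later libraries stayed at 58.5 to 64.9% and that of lost bins at 72 to 79.4%. Leaving out 1 library gave 326 to 1107 gained and 116 to 412 lost bins, with later shares of 29.5 to 83.9% and 42.4 to 84.8%, since 1 library less had to agree. Replicate 1 alone gave 1625 gained and 718 lost bins and replicate 2 alone 929 and 380. Without bins of mostly repeated words 23 bins were lost and without chromosome 14, 39, both chosen after the data were seen, while gained bins numbered 166 and 160.

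Coverage differed between CT0 and NS by 68.5 to 75.8 Mb over the other ways of counting LADs, always with an exact permutation p of 0.667. With the replicate number as a replicate block, the exact sign-flip permutation p of the 72.5 Mb difference was 0.5. This is the smallest that 2 pairs allow. Neither test can give a small p with so few mice, so the block could not change a call. Same-numbered libraries share a number and not a mouse, and over bins their deviations from the group means had a correlation of 0.48, beside the window lengths they share. Leaving out 1 library gave differences of -20.6 to 165.7 Mb in coverage and of -89 to 111 LADs. The log2 median LAD size differed by -0.81 to 0.86 and the number of genes in LADs by -250.5 to 603.5. The sign of each of the 4 measures thus changed. Each of these values set 1 library against the mean of 2 libraries with unlike EDD windows. Without CT0 replicate 2 the differences were -2.44 Mb, -76 LADs and -144 genes, and without CT0 replicate 1 the log2 size differed by -0.64. With LADs joined at assembly gaps, chosen after the data were seen, the log2 size differed by -0.0061 in place of 0.025 (exact permutation p = 1). The absence of read counts limits all values, since a LAD just under the calling threshold cannot be told from one that is far below it.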
